A study of Rattus norvegicus with 9 samples.

Results

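The genes described here are the pore-forming and auxiliary subunits of potassium channels together with the hyperpolarization-activated Hcn channels, in rat striatal tissue. The set was chosen with earlier results of these data known. Its rule went by symbol, as every gene whose symbol starts with Kcn, family letters and a number, or with Hcn and a number. Kcnj10 and Kcnj8 were left out. This rule took 92 of the 22890 genes counted. The 9 messenger RNA libraries fell into the groups EDB, ICH and Sham, with 3 in each. EDB stands in the labels for edaravone dexborneol, a drug that combines the free radical scavenger edaravone with dexborneol, ICH stands for intracerebral hemorrhage, and Sham is the control group by its name. The labels do not state whether EDB rats also had a hemorrhage, how it was made, or any dose, time, strain, age or sex. Whether the 3 libraries of a group are from different rats is not labelled, so the p-values measure only the spread between these libraries, which may be technical in part. Every pair of libraries within a group differed by more than counting error, with a chi-square per degree of freedom of 24.3 to 70.03. All 9 libraries are of whole tissue, and in bulk tissue fewer cells of a type and less RNA per cell cannot be told apart.

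Potassium channels let potassium leave the cell and so set the resting potential, end the action potential and control how fast a neuron fires. Voltage-gated channels open on depolarization, calcium- and sodium-activated channels open when those ions enter, and inward rectifiers and tandem-pore leak channels hold the membrane near rest. Striatal projection neurons are known for strong inward rectification and for slow voltage-gated currents that keep them silent between bursts of input. Hcn channels open on hyperpolarization and carry a depolarizing pacemaker current that cyclic AMP enhances. Microglia and macrophages use a small set of potassium channels of their own, which hold their potential and serve calcium entry and potassium efflux.

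Libraries held 14658110 to 17659936 counts, and the channel genes together took 0.356% to 0.414% of the counts of EDB libraries, 0.297% to 0.328% of those of ICH libraries and 0.388% to 0.437% of those of Sham libraries. Values per library are CPM, read counts relative to the scaled library sizes, given in the order of libraries 1, 2 and 3 of each group. A filter on low counts left 14274 genes in the test, among them 79 of the 92 channel genes. The other 13 had totals of 1 to 292 counts over the 9 libraries. A gene was called, and is said to have risen or fallen, when edgeR's quasi-likelihood test gave an adjusted p (Benjamini-Hochberg, all 14274 genes) below 0.05. Fold changes are fitted log2 values, 3 libraries against 3. Their standard errors are approximate, derived from the F statistic of the same test, with the spread estimated over all 9 libraries. The libraries Sham 2, ICH 1 and EDB 3 stood apart from their groups. Sham 2 lay away from Sham 1 and Sham 3 on the second principal component, which held 19.1% of the variance. ICH 1 had 0 CPM of the Y-linked gene Kdm5d, against 10.3 to 18.5 CPM in the other 8 libraries. EDB 3 held 7329 CPM of 6 choroid plexus markers together, against 27.9 to 74.8 CPM in the other 8. Sham 1 and Sham 3 differed from the rest in 4 liver markers, which summed to 185 and 183 CPM there, against 2.91 to 30.01 CPM in the other 7 libraries, and their part in the comparisons with Sham was not tested.

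In ICH against Sham, 5 of the 79 tested channel genes rose and 20 fell. Those are 6.33% risen, where 11.4% of all tested genes rose, and 25.3% fallen, where 7.30% of all tested genes fell. The median log2 fold change of the 79 was -0.44, against 0.01 for all 14274 genes, and 60 of the 79 values were negative, against 7043 of 14274. In each of the 25 called genes the 3 ICH libraries lay entirely above or entirely below the 3 Sham libraries. The genes were picked by a test on these same libraries, which favours such separation, and its share over all genes was not counted. Without ICH 1 the number fallen was 12, where 565 of all 14436 genes then tested fell, against 1042 with all 9 libraries. Without Sham 1 the number risen was 3, where 1237 of all 14435 genes then tested rose, against 1628 with all 9 libraries.

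In EDB against ICH no channel gene was called by edgeR's quasi-likelihood test, while 0.0560% of all tested genes rose and 0.631% fell. At an unadjusted p under 0.05 the same test placed 22 channel genes of 79 higher and 1 lower in EDB, where 895 of all 14274 genes were higher and 1423 lower, and without EDB 1 the 22 became 13. After adjustment limma-voom called 0, where it called 21 of all genes higher and 161 lower. DESeq2 called 7 higher and 1 lower, where it called 215 of all genes higher and 481 lower. The median log2 fold change was 0.29, against -0.03 for all genes, and 75.9% of the 79 values were positive, against 46.2% of all genes. Without Sham 2 in the fit, 1 channel gene was called higher, where 92 of all 14519 genes then tested were called higher and 229 lower.

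In EDB against Sham, 5 channel genes rose, where 4.95% of all tested genes rose, and 4 fell, where 2.71% of all tested genes fell. Those are 6.33% and 5.06% of the 79, the first close to the share of all genes. The median log2 fold change was -0.19, against -0.01 for all genes. It was -0.13 without EDB 3 or without Sham 2, -0.10 with no filter beyond 1 count in all, and -0.05 without Sham 2, ICH 1 and EDB 3 together. The number risen was 2 without Sham 1, without Sham 3 or without EDB 1. Of all tested genes 380, 406 and 374 rose in those fits, against 707 with all 9 libraries. The 3 comparisons share libraries: those of ICH enter EDB against ICH and ICH against Sham, and those of Sham enter both comparisons with Sham, so their values are set side by side below and are not separate evidence.

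**Figure D1:**
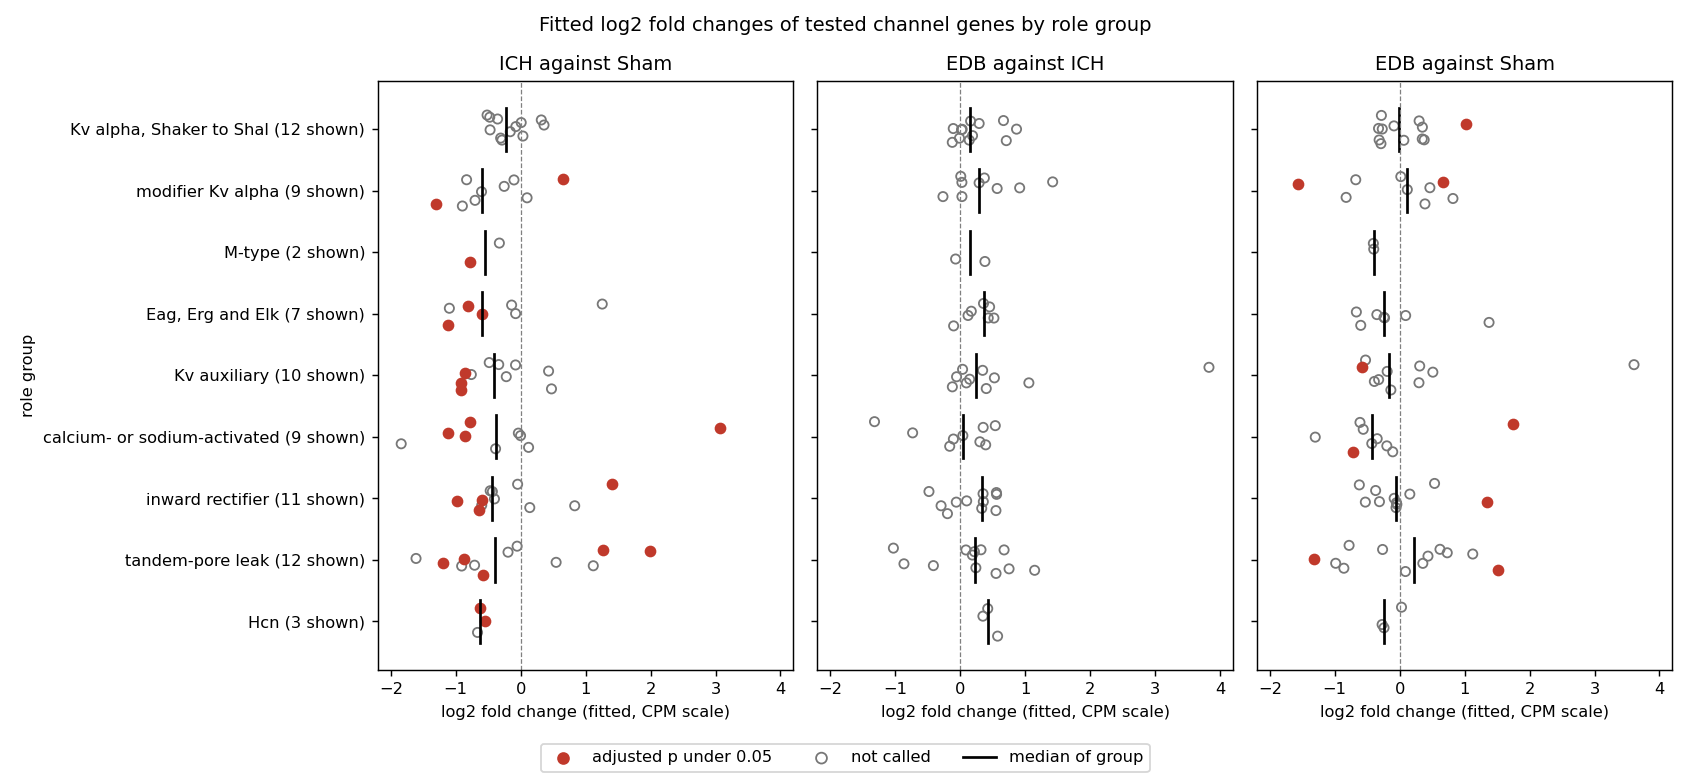
Fitted log2 fold change (horizontal axes) of 75 of the 79 tested channel genes, 1 circle a gene, in the 9 role groups (vertical axis, with the number shown) for ICH against Sham, EDB against ICH and EDB against Sham. Filled red circles have an adjusted p under 0.05, open circles do not, and the vertical bars are medians of the genes shown. In ICH against Sham every such median lies below 0, between -0.62 for the Hcn group and -0.23 for the Kv alpha group, and in EDB against ICH every one lies above 0, between 0.04 and 0.42.

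The summed level of all 92 channel genes was 3628 to 4099 CPM in EDB, 2932 to 3099 CPM in ICH and 3780 to 4725 CPM in Sham. Every ICH library lay below every EDB and every Sham library, while EDB and Sham overlapped. The sums of neuronal markers were also lowest in ICH on average. The 6 neuronal markers summed to 1222 to 1534 CPM in EDB, 1039 to 1237 CPM in ICH and 1454 to 1646 CPM in Sham, and 2 of the 6 fell in ICH against Sham. Of the 5 markers of striatal projection neurons, 2 fell in ICH against Sham, and their sum was 6446 to 6924 CPM in EDB, 4112 to 5479 CPM in ICH and 5666 to 9717 CPM in Sham. No marker on either list was at 0 in all libraries, and striatal markers were present in each. The part of these markers in the falls of channel genes was not tested.

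Calcium- and sodium-activated channels held the largest rise and the smallest p-value of the set in ICH against Sham. Kcnn4 encodes the intermediate-conductance calcium-activated channel of microglia, lymphocytes and red blood cells. Its level was 5.69, 3.42 and 3.38 CPM in EDB, 15.9, 9.19 and 6.103 CPM in ICH, against 0.937, 1.2996 and 1.49 CPM in Sham. All ICH libraries lay above all EDB libraries, which lay above all Sham libraries, and ICH 1 was the highest. The log2 fold change was 3.06 ± 0.41, adjusted p = 0.000496 in ICH against Sham, and 1.74 ± 0.41, adjusted p = 0.0267 in EDB against Sham. For EDB against ICH it was -1.32 ± 0.37, adjusted p = 0.123, which was not called, and DESeq2 called it lower (adjusted p = 0.0323). Kcnn4 was not called in EDB against Sham without EDB 1, Sham 1 or Sham 3 or by limma-voom (adjusted p between 0.0651 and 0.113). The 7 markers of microglia and macrophages rose in ICH and in EDB against Sham, 7 of 7 in both, none of them was at 0 in all libraries, and they summed to 1243 to 2194 CPM in EDB, 2432 to 2802 CPM in ICH and 543 to 586 CPM in Sham. The 2 T cell markers in the table summed to at most 2.19 CPM in any library. The part of microglial transcripts in the rise of Kcnn4 was not tested.

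Kcnt1 encodes the sodium-activated potassium channel Slack, which shapes the afterpotential of bursting neurons. It had 124, 129 and 123 CPM in EDB, 94.1, 100.4 and 91.9 CPM in ICH, against 186, 214 and 219.95 CPM in Sham. The 3 groups did not overlap, with ICH lowest, EDB between and Sham highest. The log2 fold change was -1.11 ± 0.11, adjusted p = 6.78e-05 in ICH against Sham, -0.72 ± 0.11, adjusted p = 0.00246 in EDB against Sham and 0.39 ± 0.11, adjusted p = 0.11 in EDB against ICH. Among the alternative settings, only DESeq2 called Kcnt1 in EDB against ICH (adjusted p = 0.0145).

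Kcnmb4, the neuronal auxiliary subunit of the large-conductance calcium-activated channel, had 34.2, 34.4 and 32.8 CPM in EDB, 24.8, 27.6 and 27.002 CPM in ICH, against 39.4, 46.99 and 50.2 CPM in Sham. It fell in ICH against Sham (-0.78 ± 0.13, adjusted p = 0.00173) with no overlap, and EDB libraries lay between the other groups. Its value in EDB against Sham was -0.43 ± 0.13, adjusted p = 0.0659, and it was called by DESeq2 (adjusted p = 0.027). Kcnma1, the pore subunit that Kcnmb4 modulates, had 33.3 ± 7.15 CPM in EDB, 35.8 ± 6.83 CPM in ICH and 35.9 ± 1.28 CPM in Sham (SD, n = 3), with a log2 fold change of -0.0026 ± 0.18, adjusted p = 0.996 in ICH against Sham and overlapping groups. Kcnmb1, the auxiliary subunit of smooth muscle, had a log2 fold change of -1.84 ± 0.73, adjusted p = 0.105 in ICH against Sham at 0.495, 0.2997 and 0.688 CPM in EDB, 0.175, 0.692 and 0.162 CPM in ICH, against 0.812, 0.616 and 2.27 CPM in Sham. Its groups overlapped, and 2 of 4 mural cell markers fell in that comparison.

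Kcnn1, a small-conductance calcium-activated channel of neurons, fell in ICH against Sham (-0.86 ± 0.19, adjusted p = 0.00993). Its level was 11.6, 10.7 and 10.9 CPM in EDB, 7.29, 9.94 and 9.61 CPM in ICH, against 13.3, 18.4 and 17.2 CPM in Sham, with every EDB library between the ICH and the Sham libraries. It was not called without Sham 2, ICH 1 and EDB 3 together (adjusted p = 0.077). The other 3 tested members, Kcnmb2, Kcnn2 and Kcnn3, ranged over log2 fold changes of -0.39 to 0.12 in ICH against Sham and -0.73 to 0.04 in EDB against ICH, and none was called.

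Tandem-pore leak channels set the resting conductance, and 2 of the 12 tested rose in ICH against Sham while 3 fell. Kcnk13, a leak channel that in rodents carries the resting potassium conductance of microglia, had 16.6, 15.2 and 12.5 CPM in EDB, 12.1, 12.4 and 13.02 CPM in ICH, against 3.87, 6.02 and 5.66 CPM in Sham. EDB and ICH libraries overlapped, and all 6 lay above the 3 Sham libraries. Kcnk13 rose by 1.27 ± 0.21, adjusted p = 0.00192 in ICH against Sham and by 1.51 ± 0.21, adjusted p = 0.00199 in EDB against Sham, on the log2 scale. Both calls held in each alternative setting.

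Kcnk6 encodes a leak channel of macrophages and other cells, known in mouse macrophages as a route of potassium efflux. It had 5.07, 2.88 and 0.875 CPM in EDB, 6.01, 4.59 and 5.51 CPM in ICH, against 1.25, 1.16 and 1.63 CPM in Sham. All ICH libraries lay above all Sham libraries, while EDB 3 lay below and EDB 1 and EDB 2 lay above them. The log2 fold change was 1.99 ± 0.52, adjusted p = 0.0202 in ICH against Sham and 1.12 ± 0.52, adjusted p = 0.223 in EDB against Sham. Kcnk6 was not called in ICH against Sham without ICH 1, Sham 1 or Sham 2 (adjusted p between 0.0578 and 0.0678). Kcnk6 was called in EDB against Sham without EDB 3 or without Sham 2, ICH 1 and EDB 3 together (adjusted p between 0.0313 and 0.0475), and without EDB 1 its value there was 0.48 (adjusted p = 0.687). EDB 3 also had the lowest sum of microglial and macrophage markers of the EDB group, 1243 CPM, against 2061 and 2194 CPM in EDB 2 and EDB 1. Their part in the values of Kcnk6 and Kcnk13 was not tested.

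The 3 leak channel genes that fell in ICH against Sham were Kcnk2, Kcnk4 and Kcnk15. Kcnk2, a leak channel gated by stretch and lipids, had 134, 145 and 123 CPM in EDB, 101, 111 and 111 CPM in ICH, against 117, 194 and 173 CPM in Sham, with a log2 fold change of -0.58 ± 0.17, adjusted p = 0.0334. The call was the least stable of the 25: Kcnk2 was not called without EDB 1, ICH 1, ICH 2, ICH 3, Sham 2 or Sham 3, with scaling by library size only, in a fit of the 6 compared libraries alone or without Sham 2, ICH 1 and EDB 3 together (adjusted p between 0.0517 and 0.167). Kcnk4, a related stretch- and lipid-gated channel of neurons, had 5.01, 5.16 and 5.63 CPM in EDB, 4.72, 4.34 and 5.78 CPM in ICH, against 10.2, 7.59 and 9.27 CPM in Sham and a change of -0.87 ± 0.22, adjusted p = 0.0198. All 6 EDB and ICH libraries lay below the Sham libraries. Kcnk4 was not called without ICH 1, ICH 2, Sham 1 or Sham 3 (adjusted p between 0.0568 and 0.0662), and in EDB against Sham, at -0.78 ± 0.22, adjusted p = 0.0579, it was called without Sham 2 or by DESeq2 (adjusted p between 0.0153 and 0.0352). Kcnk15, a member of the acid-sensitive subfamily that carried no current on its own when expressed in cell lines, fell by 1.20 on the log2 scale (SE 0.30, adjusted p = 0.0165) to 2.45 ± 0.379 CPM in ICH, against 5.66 ± 0.709 CPM in Sham (SD, n = 3). Kcnk15 was not called in ICH against Sham without ICH 2, ICH 3 or Sham 3 (adjusted p between 0.0518 and 0.0632). At -0.99 ± 0.30, adjusted p = 0.0683 in EDB against Sham it was called by DESeq2 (adjusted p = 0.0249).

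Kcnk9, an acid-sensitive leak channel of neurons, was called in EDB against Sham and in neither other comparison. It had 4.33, 5.28 and 2.69 CPM in EDB, 4.66, 6.17 and 5.56 CPM in ICH, against 8.37, 14.3 and 8.14 CPM in Sham. All EDB and ICH libraries lay below the Sham libraries. The change was -1.32 ± 0.32, adjusted p = 0.0282 in EDB against Sham, -0.91 ± 0.31, adjusted p = 0.065 in ICH against Sham and -0.41 ± 0.32, adjusted p = 0.554 in EDB against ICH. Kcnk9 was not called in EDB against Sham without EDB 1, EDB 3 or Sham 2, in a fit of the 6 compared libraries alone or without Sham 2, ICH 1 and EDB 3 together (adjusted p between 0.0582 and 0.0889). Kcnk9 was called in ICH against Sham without EDB 3 or by DESeq2 (adjusted p between 0.0248 and 0.0458). The other 6 tested leak channel genes ranged from -1.61 to 1.12 in ICH against Sham and from -1.03 to 1.15 in EDB against ICH. One of them, Kcnk1, a leak channel of neurons and astrocytes singled out after its values were seen, had 73.9, 66.3 and 89.5 CPM in EDB, 49.4, 45.7 and 48.6 CPM in ICH, against 37.1, 59.99 and 52.4 CPM in Sham. Its EDB libraries lay above all others, with 0.68 ± 0.18, adjusted p = 0.102 in EDB against ICH and 0.62 ± 0.18, adjusted p = 0.0568 in EDB against Sham. Kcnk1 was called in EDB against ICH by DESeq2 (adjusted p = 0.0187), and in EDB against Sham it was called without Sham 2, with scaling by library size only, by DESeq2 or without Sham 2, ICH 1 and EDB 3 together (adjusted p between 0.022 and 0.0416).

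**Figure D2:**
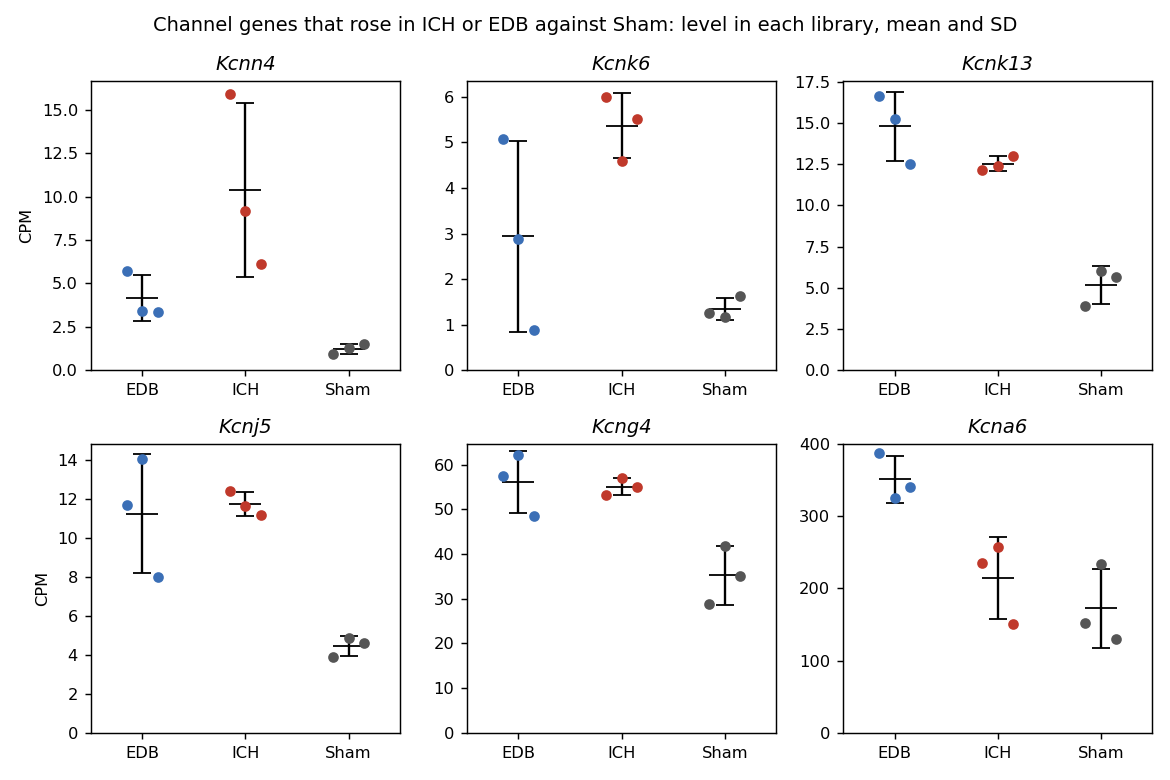
Level in CPM (vertical axes) of the 6 channel genes that rose in ICH or in EDB against Sham, in each library of EDB, ICH and Sham (horizontal axes). Points are libraries, horizontal bars the mean and vertical bars the SD of 3 libraries. In Kcnn4, Kcnk13, Kcnj5 and Kcng4 all 6 EDB and ICH libraries lie above the 3 Sham libraries, in Kcnk6 EDB 3 lies below Sham, and in Kcna6 the 3 EDB libraries lie above all ICH and Sham libraries.

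Inward rectifiers pass current more readily into than out of the cell, and of 11 tested 1 rose and 3 fell in ICH against Sham. The riser was Kcnj5, a channel opened by G protein subunits that is best known from the atrium of the heart and the adrenal cortex. It had 11.7, 14.1 and 8.002 CPM in EDB, 12.4, 11.6 and 11.2 CPM in ICH, against 3.87, 4.86 and 4.601 CPM in Sham. All 6 EDB and ICH libraries lay above the Sham libraries, and the first 2 groups overlapped. Kcnj5 rose by 1.40 ± 0.24, adjusted p = 0.00201 in ICH against Sham and by 1.34 ± 0.24, adjusted p = 0.00636 in EDB against Sham, on the log2 scale. These calls held in each alternative setting. The difference between EDB and ICH was -0.06 ± 0.23, adjusted p = 0.921.

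Kcnj14, a strong inward rectifier of neurons, had 10.3, 11.99 and 10.8 CPM in EDB, 9.56, 8.56 and 7.78 CPM in ICH, against 16.1, 14.4 and 20.5 CPM in Sham. The groups did not overlap, with ICH lowest and Sham highest. It fell in ICH against Sham (-0.98 ± 0.19, adjusted p = 0.00431), a call that held in each alternative setting, while at -0.62 ± 0.19, adjusted p = 0.0669 in EDB against Sham it was called without Sham 2 or by DESeq2 (adjusted p between 0.022 and 0.0369). Kcnj12, a related strong rectifier, fell in ICH against Sham (-0.64 ± 0.14, adjusted p = 0.00888), with 31.7, 29.2 and 30.9 CPM in EDB, 21.98, 25.6 and 25.4 CPM in ICH, against 33.6, 44.1 and 36.3 CPM in Sham and EDB libraries between. It was not called without Sham 2, ICH 1 and EDB 3 together (adjusted p = 0.0737).

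Kcnj11 forms the pore of the ATP-sensitive channel, which closes when ATP is plentiful. It had 59.1, 54.9 and 52.4 CPM in EDB, 33.3, 40.96 and 38.8 CPM in ICH, against 45.8, 66.3 and 59.3 CPM in Sham. All ICH libraries lay below all EDB and all Sham libraries, which overlapped. The change was -0.60 ± 0.15, adjusted p = 0.0181 in ICH against Sham, 0.56 ± 0.15, adjusted p = 0.11 in EDB against ICH and -0.04 ± 0.15, adjusted p = 0.897 in EDB against Sham. Kcnj11 was not called in ICH against Sham without ICH 1, Sham 2 or Sham 3 or without Sham 2, ICH 1 and EDB 3 together (adjusted p between 0.0524 and 0.121). Kcnj11 was called in EDB against ICH by DESeq2 (adjusted p = 0.028).

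Kcnj2 and Kcnj4 encode the strong rectifiers that dominate the resting conductance of striatal projection neurons, and neither was called. Kcnj2 had 28.2 ± 5.46 CPM in EDB, 26.3 ± 0.931 CPM in ICH and 36.4 ± 3.55 CPM in Sham (SD, n = 3), with -0.47 ± 0.15, adjusted p = 0.0573 in ICH against Sham. It was called without EDB 2, with RLE size factors, by DESeq2 or in a fit of the 6 compared libraries alone (adjusted p between 0.02 and 0.0463). Kcnj4 had 198 ± 26.4 CPM in EDB, 134 ± 25.7 CPM in ICH and 178 ± 49.6 CPM in Sham, with -0.40 ± 0.20, adjusted p = 0.206 in ICH against Sham and 0.56 ± 0.20, adjusted p = 0.212 in EDB against ICH. Kcnj16, which pairs with the astrocyte channel Kcnj10, had 7.25 ± 1.94 CPM in EDB, 8.89 ± 0.257 CPM in ICH and 4.99 ± 2.38 CPM in Sham. Its change was 0.83 ± 0.35, adjusted p = 0.129 in ICH against Sham with all ICH libraries above Sham, and it was not called. The other 4 tested rectifiers, Kcnj3, Kcnj6, Kcnj9 and Kcnj15, ranged from -0.60 to 0.14 in ICH against Sham.

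The Shaker to Shal families form the pores of most voltage-gated potassium channels. Of 14 tested, 1 rose in EDB against Sham. Kcna6, a Shaker channel of neurons and glia, had 387, 325 and 341 CPM in EDB, 236, 257 and 151 CPM in ICH, against 152, 234 and 129.97 CPM in Sham. All EDB libraries lay above all others, while ICH and Sham overlapped. The change was 1.03 ± 0.24, adjusted p = 0.0246 in EDB against Sham, 0.71 ± 0.24, adjusted p = 0.178 in EDB against ICH and 0.32 ± 0.23, adjusted p = 0.405 in ICH against Sham. Kcna6 was not called in EDB against Sham without EDB 1, Sham 1 or Sham 3 (adjusted p between 0.0913 and 0.109). The 5 oligodendrocyte markers summed to 32725 to 39056 CPM in EDB, 13735 to 27092 CPM in ICH and 14227 to 24899 CPM in Sham. EDB stood above both other groups, and none of the 5 was called in any comparison. Their part in the level of Kcna6 was not tested.

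Kcnc1, a fast channel that lets interneurons and other neurons fire at high rates, had 88.7, 65.3 and 49.5 CPM in EDB, 40.9, 36.5 and 34.1 CPM in ICH, against 42.2, 68.9 and 48.6 CPM in Sham. ICH libraries lay below all EDB and Sham libraries, with -0.52 ± 0.23, adjusted p = 0.142 in ICH against Sham and 0.87 ± 0.23, adjusted p = 0.102 in EDB against ICH, neither called. Kcnc1 was called in EDB against ICH by DESeq2 or without Sham 2, ICH 1 and EDB 3 together (adjusted p between 0.0115 and 0.0223), and in EDB against Sham, at 0.35, it was called without Sham 2, ICH 1 and EDB 3 together (adjusted p = 0.0201).

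The axonal channels Kcna1 and Kcna2, which sit beside the nodes of myelinated fibres, were not called in any comparison. Kcna1 had 213 ± 29.9 CPM in EDB, 174 ± 20.99 CPM in ICH and 173 ± 8.53 CPM in Sham (SD, n = 3), and Kcna2 had 74.7 ± 19.5 CPM in EDB, 73.1 ± 11.6 CPM in ICH and 93.6 ± 17.05 CPM in Sham. The EDB libraries of Kcna1 lay above all others, at 0.29 ± 0.13, adjusted p = 0.312 in EDB against ICH. Kcna3, a channel of T cells and activated microglia, had 4.65 ± 0.9598 CPM in EDB, 5.06 ± 0.8303 CPM in ICH and 4.94 ± 1.26 CPM in Sham, with 0.03 ± 0.28, adjusted p = 0.955 in ICH against Sham and overlapping groups. Kcnd2, the main pore of the transient current in striatal dendrites, had 76.3 ± 23.2 CPM in EDB, 82.2 ± 11.4 CPM in ICH and 91.9 ± 21.2 CPM in Sham and a change of -0.16 ± 0.22, adjusted p = 0.68 in ICH against Sham, also with overlap. The pores Kcna4, Kcna5, Kcnc2, Kcnc4, Kcnd1 and Kcnd3 ranged from -0.48 to 0.36 in ICH against Sham. In EDB against ICH these 6 ranged from -0.01 to 0.67.

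Modifier subunits form no channel alone and change the properties of the pore subunits they join. Of 9 tested, 1 rose and 1 fell in ICH against Sham and likewise in EDB against Sham. Kcng1, the modifier that fell, had 14.7, 36.8 and 26.3 CPM in EDB, 26.6, 30.9 and 35.97 CPM in ICH, against 64.2, 90.8 and 74.8 CPM in Sham. All 6 EDB and ICH libraries lay below all Sham libraries. Its change was -1.30 ± 0.28, adjusted p = 0.00769 in ICH against Sham and -1.56 ± 0.28, adjusted p = 0.00677 in EDB against Sham. Both calls were lost without Sham 2, ICH 1 and EDB 3 together (adjusted p = 0.102 in ICH against Sham and adjusted p = 0.0535 in EDB against Sham).

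Kcng4, the modifier that rose, had 57.4, 62.2 and 48.5 CPM in EDB, 53.2, 57.01 and 54.9 CPM in ICH, against 28.8, 41.9 and 34.97 CPM in Sham. All 6 EDB and ICH libraries lay above all Sham libraries. The change was 0.64 ± 0.15, adjusted p = 0.0135 in ICH against Sham and 0.67 ± 0.15, adjusted p = 0.0235 in EDB against Sham. Kcng4 was not called in ICH against Sham without ICH 2 or Sham 1 (adjusted p between 0.063 and 0.0748). Kcng4 was not called in EDB against Sham without EDB 1, EDB 2, ICH 2, Sham 1 or Sham 3 or in a fit of the 6 compared libraries alone (adjusted p between 0.0512 and 0.104). The 7 other tested modifiers ranged from -0.90 to 0.10 in ICH against Sham and from 0.01 to 1.42 in EDB against ICH. The highest value in EDB against ICH belonged to Kcns1, named after its values were seen, with 11.3, 8.51 and 7.69 CPM in EDB, 5.71, 2.52 and 1.998 CPM in ICH, against 2.81, 7.59 and 5.17 CPM in Sham. Its EDB libraries lay above all others, at 1.42 ± 0.44, adjusted p = 0.152. Kcns1 was called in EDB against ICH by DESeq2 or without Sham 2, ICH 1 and EDB 3 together (adjusted p between 0.0326 and 0.0338), and in EDB against Sham, at 0.82, it was called without Sham 2, ICH 1 and EDB 3 together (adjusted p = 0.0415).

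Auxiliary subunits of voltage-gated channels gave 3 of the 20 falls in ICH against Sham, with 10 tested. Kcnip3, a calcium sensor that binds Shal channels and also acts as a transcriptional repressor, had 68.98, 63.8 and 68.4 CPM in EDB, 52.4, 51.5 and 54.5 CPM in ICH, against 87.3, 106 and 106 CPM in Sham. The 3 groups did not overlap, with ICH lowest and EDB between. The change was -0.92 ± 0.11, adjusted p = 0.000289 in ICH against Sham, -0.57 ± 0.11, adjusted p = 0.0117 in EDB against Sham and 0.35 ± 0.11, adjusted p = 0.177 in EDB against ICH. Both calls against Sham held in each alternative setting.

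Kcnip2, a Shal partner abundant in striatum, had 350.05, 313 and 256 CPM in EDB, 173, 216 and 249 CPM in ICH, against 367, 438 and 346 CPM in Sham. It fell in ICH against Sham (-0.85 ± 0.17, adjusted p = 0.0051), a call that held in each setting, and its ICH libraries lay below all EDB and Sham libraries. Kcnab2, a cytoplasmic partner of Shaker channels, had 213, 161 and 171 CPM in EDB, 121, 125 and 167 CPM in ICH, against 216, 309 and 259 CPM in Sham. Its change was -0.93 ± 0.18, adjusted p = 0.0041 in ICH against Sham and -0.53 ± 0.17, adjusted p = 0.095 in EDB against Sham, where it was called by DESeq2 (adjusted p = 0.0452). The other 6 tested auxiliaries apart from Kcne2 ranged from -0.76 to 0.47 in ICH against Sham and from -0.12 to 1.06 in EDB against ICH.

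Eag, Erg and Elk channels gave 3 falls among 7 tested. Kcnh4 and Kcnh3, the Elk channels of forebrain neurons, both fell in ICH against Sham. Kcnh4 had 44.5, 41.6 and 35.9 CPM in EDB, 27.8, 30.1 and 27.3 CPM in ICH, against 54.4, 82.1 and 48.6 CPM in Sham, and its change was -1.12 ± 0.19, adjusted p = 0.00201. Kcnh3 had 174, 133 and 156 CPM in EDB, 99.6, 106 and 132 CPM in ICH, against 176, 223 and 191 CPM in Sham, and its change was -0.80 ± 0.15, adjusted p = 0.00399. Kcnh4 groups did not overlap, ICH lowest and EDB between, and both calls held in each setting. The EDB against Sham values were -0.60 ± 0.19, adjusted p = 0.0759 for Kcnh4 and -0.35 ± 0.15, adjusted p = 0.19 for Kcnh3, and Kcnh4 was called by DESeq2 (adjusted p = 0.0333).

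Kcnh2, the Erg channel, had 51.5, 45.3 and 35.1 CPM in EDB, 32.2, 38.4 and 32.3 CPM in ICH, against 47.2, 58.7 and 49.2 CPM in Sham and a change of -0.59 ± 0.16, adjusted p = 0.0266 in ICH against Sham. ICH overlapped EDB but not Sham. Kcnh2 was not called without ICH 1, ICH 3 or Sham 2, with scaling by library size only or without Sham 2, ICH 1 and EDB 3 together (adjusted p between 0.0549 and 0.0918). The other 4 tested members ranged from -1.10 to 1.26 in ICH against Sham.

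M-type channels carry the slow current that muscarinic receptors shut. Kcnq3, a pore subunit of that channel in the brain, had 11.8, 11.1 and 12.8 CPM in EDB, 9.56, 8.31 and 9.56 CPM in ICH, against 11.6, 19.02 and 16.8 CPM in Sham, with ICH below all EDB and Sham libraries and a change of -0.79 ± 0.20, adjusted p = 0.0209 in ICH against Sham. Kcnq3 was not called without ICH 1, ICH 2, ICH 3, Sham 2 or Sham 3 or without Sham 2, ICH 1 and EDB 3 together (adjusted p between 0.0513 and 0.0949). Kcnq5, a related pore of brain and muscle, had 57.7 ± 13.5 CPM in EDB, 60.6 ± 5.32 CPM in ICH and 76.2 ± 9.1 CPM in Sham (SD, n = 3) and a change of -0.33 ± 0.17, adjusted p = 0.205 in ICH against Sham. In EDB against Sham, at -0.40 ± 0.17, adjusted p = 0.177, it was called without EDB 2 (adjusted p = 0.0393).

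**Figure D3:**
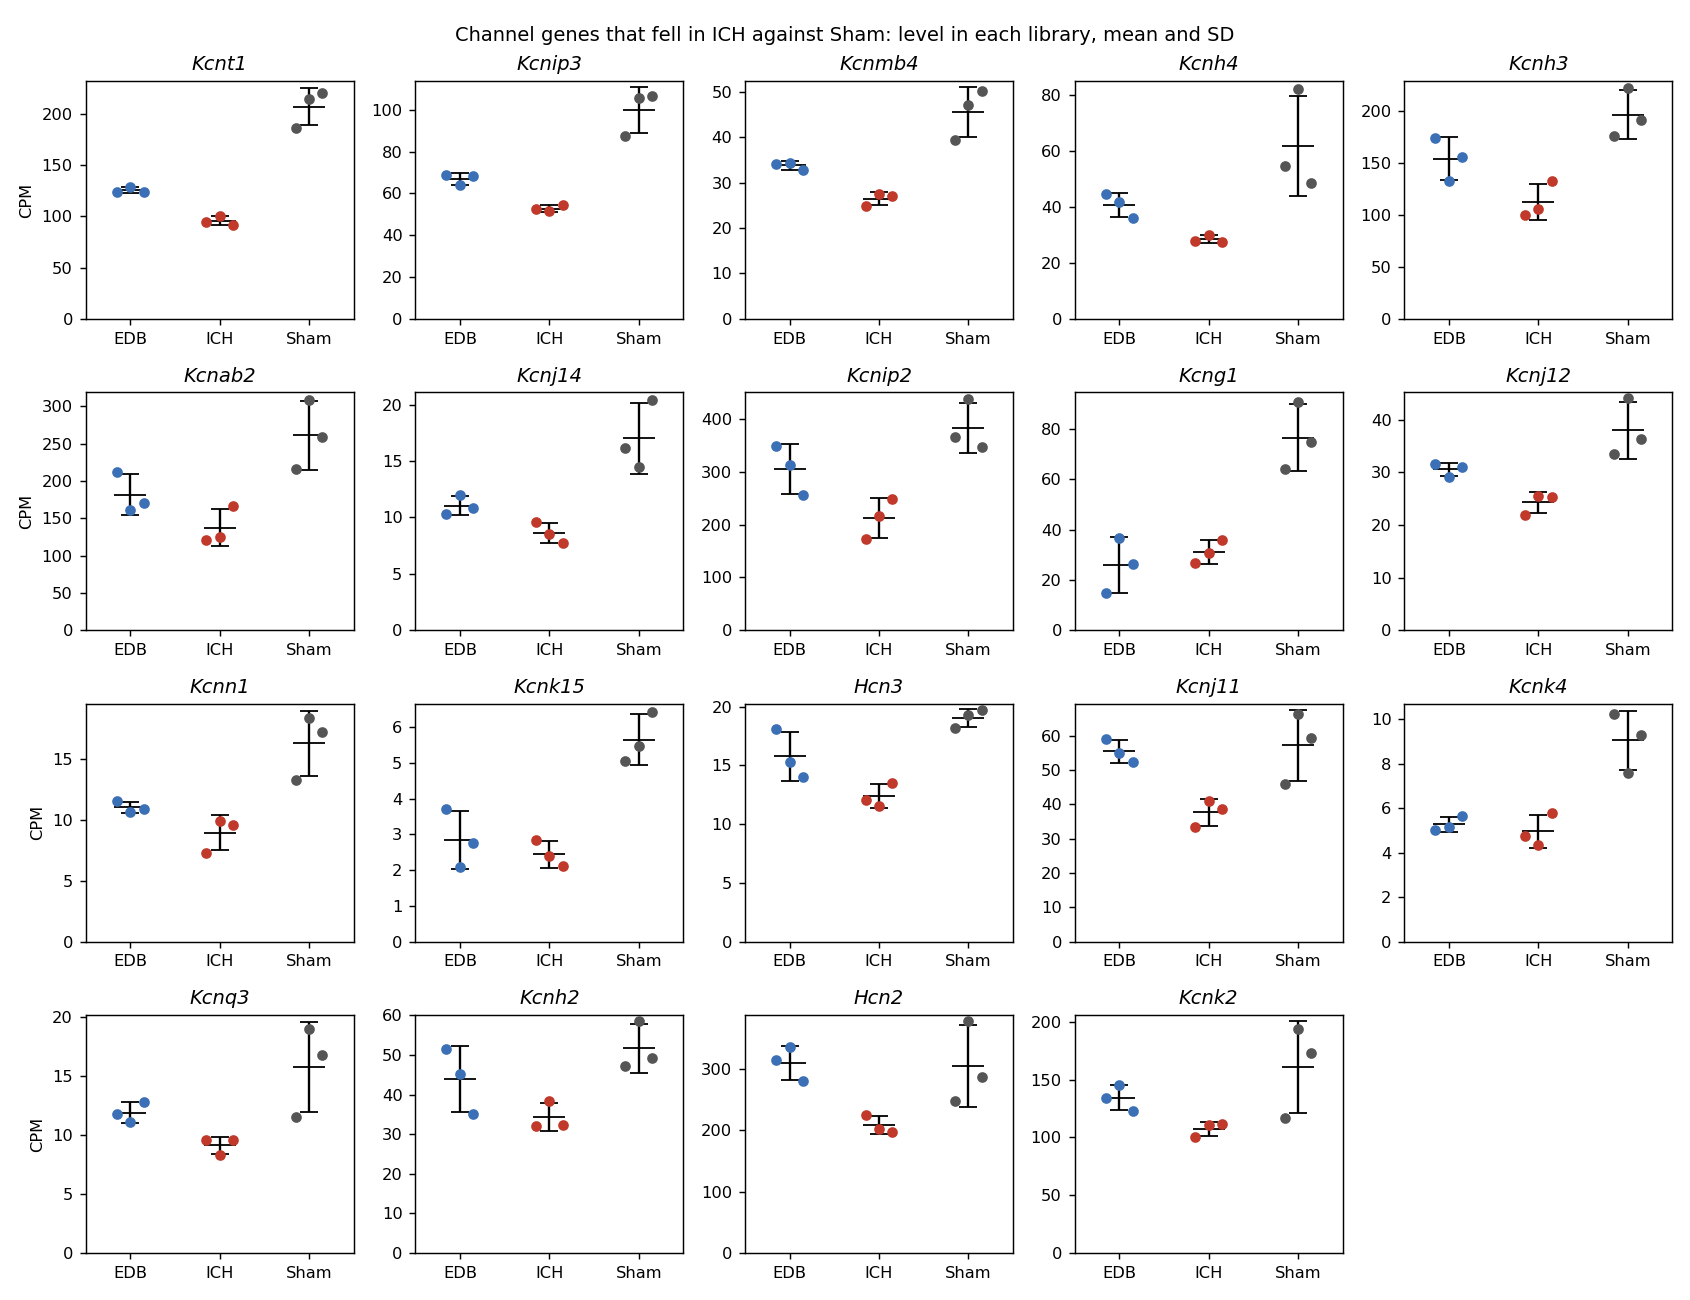
Level in CPM (vertical axes) of 19 of the 20 channel genes that fell in ICH against Sham, in each library of EDB, ICH and Sham (horizontal axes), ordered by p-value. Points are libraries, horizontal bars the mean and vertical bars the SD of 3 libraries. In each panel the 3 ICH libraries lie below the 3 Sham libraries, and EDB libraries lie mostly between, while in Kcng1 and Kcnk15 an EDB library lies below all of ICH.

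Among the Hcn genes, 2 fell in ICH against Sham. Hcn2, the subunit most responsive to cyclic AMP in the brain together with Hcn4, had 314, 336 and 281 CPM in EDB, 225, 202 and 197 CPM in ICH, against 248, 378 and 286 CPM in Sham. All ICH libraries lay below all EDB and all Sham libraries, and EDB and Sham overlapped. The change was -0.55 ± 0.16, adjusted p = 0.0316 in ICH against Sham, 0.58 ± 0.16, adjusted p = 0.109 in EDB against ICH and 0.03 ± 0.15, adjusted p = 0.938 in EDB against Sham. Hcn2 was not called in ICH against Sham without ICH 1, ICH 2, ICH 3, Sham 2 or Sham 3 or in a fit of the 6 compared libraries alone (adjusted p between 0.053 and 0.0952), and without Sham 2 the value was -0.36. Hcn2 was called in EDB against ICH without Sham 2, by DESeq2 or without Sham 2, ICH 1 and EDB 3 together (adjusted p between 0.0188 and 0.0358), always higher in EDB.

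Hcn3, a subunit little affected by cyclic AMP, had 18.1, 15.3 and 14.004 CPM in EDB, 12.1, 11.6 and 13.5 CPM in ICH, against 18.2, 19.3 and 19.7 CPM in Sham. The groups did not overlap, with ICH lowest and Sham highest. It fell in ICH against Sham (-0.62 ± 0.16, adjusted p = 0.0179). Hcn3 was not called without ICH 1, ICH 2 or Sham 3 or without Sham 2, ICH 1 and EDB 3 together (adjusted p between 0.0535 and 0.0683). In EDB against ICH its value was 0.35 ± 0.16, adjusted p = 0.3, and in EDB against Sham it was -0.27 ± 0.16, adjusted p = 0.338.

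Hcn4, the slow pacemaker subunit of heart and thalamus, had 6.56, 5.695 and 2.94 CPM in EDB, 3.09, 4.84 and 3.402 CPM in ICH, against 4.62, 9.03 and 4.32 CPM in Sham with overlap throughout and -0.66 ± 0.39, adjusted p = 0.273 in ICH against Sham. In EDB against ICH its value was 0.42 ± 0.39, adjusted p = 0.627.

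**Figure D4:**
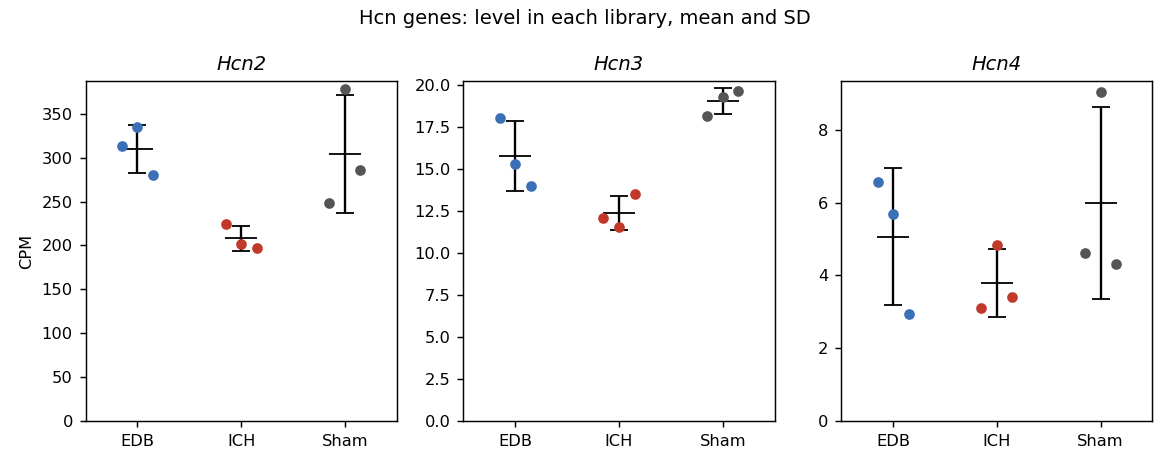
Level in CPM (vertical axes) of Hcn2, Hcn3 and Hcn4 in each library of EDB, ICH and Sham (horizontal axes). Points are libraries, horizontal bars the mean and vertical bars the SD of 3 libraries. In Hcn2 and Hcn3 the 3 ICH libraries lie below all others, and in Hcn4 the groups overlap.

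A set of 3 channel genes was high in EDB 3 alone. Kcne2, Kcnj13 and Kcnq1 are known from the choroid plexus epithelium, where their channels take part in ion transport into the cerebrospinal fluid. Kcne2, an auxiliary subunit, had 1.86, 2.28 and 78.1 CPM in EDB, 1.399, 2.14 and 2.21 CPM in ICH, against 2.06, 2.33 and 2.34 CPM in Sham. Only EDB 3 stood apart, with 1249 counts, against 24 to 41 counts in the other 8 libraries. Its log2 fold change in EDB against Sham was 3.61 ± 1.35, adjusted p = 0.155 with EDB 3, and -0.11, adjusted p = 0.912, without it. In EDB against ICH it was 3.83 ± 1.36, adjusted p = 0.22 with EDB 3, and 0.11, adjusted p = 0.936, without it.

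Kcnj13, an inward rectifier, had 269 counts in EDB 3, against 0 to 8 in each of the other 8 libraries. Kcnq1, the partner pore of Kcne2, had 41 counts in EDB 3, against 1 to 4 in each of the others. Neither passed the filter on low counts. With every gene of at least 1 count tested, Kcnj13 had a log2 fold change of 5.35 in EDB against Sham (adjusted p = 0.181) and Kcnq1 had 2.44 (adjusted p = 0.211). The choroid plexus marker Ttr was at 6684 CPM in EDB 3. Choroid plexus transcripts and these 3 channel genes were all high in that 1 library.

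**Figure D5:**
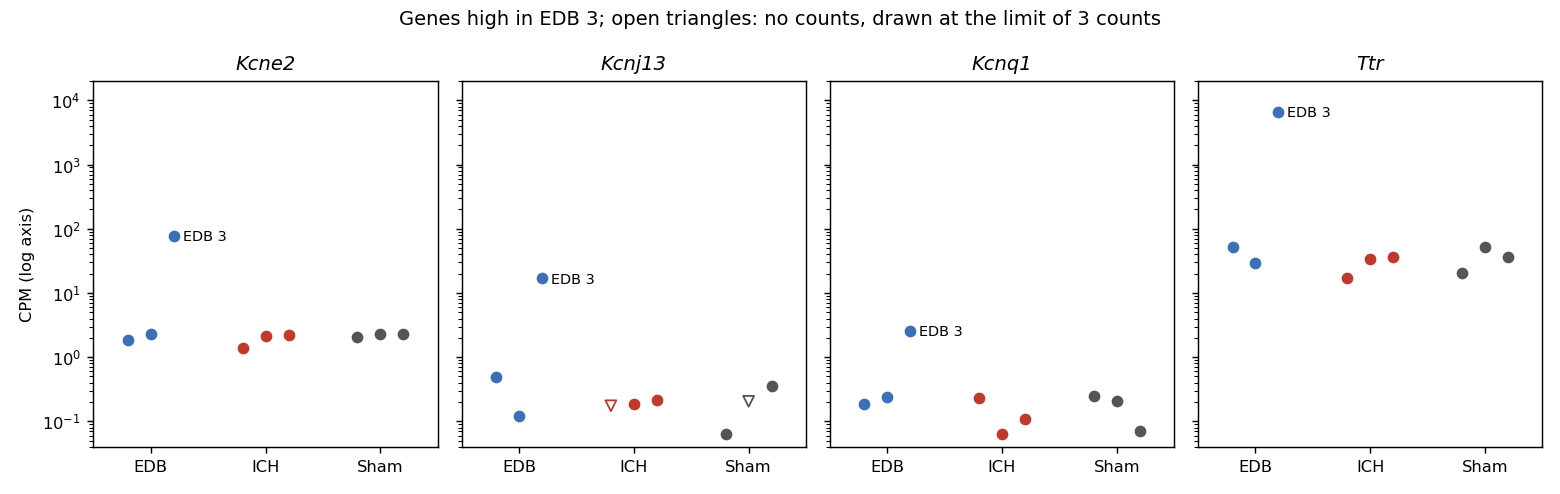
Level in CPM on a log axis (vertical) of Kcne2, Kcnj13, Kcnq1 and the choroid plexus marker Ttr in each library of EDB, ICH and Sham (horizontal). Each point is a library, and open triangles mark libraries with no counts, drawn at the limit of 3 counts. EDB 3 lies above the other 8 libraries in every panel, at 78.1 CPM for Kcne2 and 6684 CPM for Ttr.

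The remaining 11 genes that the filter removed were Kcna7, Kcna10, Kcne1, Kcnh8, Kcnj1, Kcnk7, Kcnk18, Kcnmb3, Kcnt2, Kcnu1 and Kcnv2. In the 8 libraries other than EDB 3 no untested channel gene exceeded 0.864 CPM. With every gene of at least 1 count tested by edgeR's quasi-likelihood test, 0 of the 11 were called in any comparison, 0 had an unadjusted p under 0.05, and the lowest adjusted p was 0.347; DESeq2 and limma-voom were not run on them. In ICH against Sham the libraries of Kcnk7 lay all above and those of Kcnt2 and Kcnh8 all below. Their totals were 38 to 47 counts per gene over the 9 libraries. The unadjusted p in edgeR's quasi-likelihood test was 0.129 for Kcnk7, 0.21 for Kcnt2 and 0.193 for Kcnh8. The share of all genes separated in this way was not counted.

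Channels work with scaffolds and accessory proteins outside the symbol families, and 22 of 25 such partner genes passed the filter. In ICH against Sham 0 of the 22 rose and 3 fell in edgeR's quasi-likelihood test, where 11.4% of all tested genes rose and 7.30% fell. At an unadjusted p under 0.05, 1 was higher and 7 lower, where 2528 of all 14274 genes were higher and 1973 lower. Their median was -0.29, against 0.01 for all genes. Cntnap1, which anchors the paranodal junction beside the axonal Shaker channels, had 591, 575 and 510.1 CPM in EDB, 373, 416 and 405 CPM in ICH, against 741, 1191 and 924 CPM in Sham, a change of -1.26 ± 0.17, adjusted p = 0.00044. Dlg4, the postsynaptic scaffold that clusters Shaker and inward rectifier channels, had 1058, 986 and 1010.2 CPM in EDB, 695, 844 and 963 CPM in ICH, against 1508, 1884 and 1743 CPM in Sham, a change of -1.04 ± 0.15, adjusted p = 0.000714. In both genes the groups did not overlap, with ICH lowest and EDB between. In EDB against Sham 3 of the 22 partner genes fell, where 2.71% of all tested genes fell. They were Cntnap1 (-0.77 ± 0.16, adjusted p = 0.0174), Dlg4 (-0.75 ± 0.15, adjusted p = 0.0115) and Dlg2 (-0.96 ± 0.24, adjusted p = 0.0326), a scaffold related to Dlg4. There Cntnap1 was not called without EDB 1 or EDB 3 (adjusted p between 0.0558 and 0.0665), and Dlg2 was not called without EDB 1, EDB 3, Sham 1 or Sham 3 or in a fit of the 6 compared libraries alone (adjusted p between 0.075 and 0.129). Dlg2 was called in ICH against Sham without EDB 2 or Sham 2, with RLE size factors, by DESeq2 or without Sham 2, ICH 1 and EDB 3 together (adjusted p between 0.0122 and 0.0476). By edgeR's quasi-likelihood test no partner gene was called in EDB against ICH, where 0.0560% of all tested genes rose and 0.631% fell. At an unadjusted p under 0.05, 3 of the 22 were higher and 0 lower, where 895 of all 14274 genes were higher and 1423 lower.

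Promoter sequence was available in RefSeq (build GRCr8) for 61 of the 92 genes, as windows of 250 bases before to 50 after each start. The 4 shown belong to genes called both in ICH and in EDB against Sham, the risers Kcnj5 and Kcnk13 and the fallers Kcnt1 and Kcnip3. Each is written 5′ to 3′ on the strand of its gene, at chr8:39011047-39011346 (minus strand), chr6:124971559-124971858 (plus), chr3:29081089-29081388 (plus, the first of 2 starts in RefSeq) and chr3:135195361-135195660 (minus). Capitals mark matches, on either strand, to the PU.1 site GAGGAAGT, the GC box GGGCGG and the core TGACG of the cAMP response element.
Kcnj5: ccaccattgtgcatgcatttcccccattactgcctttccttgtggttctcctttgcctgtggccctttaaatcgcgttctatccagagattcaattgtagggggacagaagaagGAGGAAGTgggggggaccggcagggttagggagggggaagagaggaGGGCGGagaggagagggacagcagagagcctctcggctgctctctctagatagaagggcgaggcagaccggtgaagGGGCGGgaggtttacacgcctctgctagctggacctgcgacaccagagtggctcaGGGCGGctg
Kcnk13: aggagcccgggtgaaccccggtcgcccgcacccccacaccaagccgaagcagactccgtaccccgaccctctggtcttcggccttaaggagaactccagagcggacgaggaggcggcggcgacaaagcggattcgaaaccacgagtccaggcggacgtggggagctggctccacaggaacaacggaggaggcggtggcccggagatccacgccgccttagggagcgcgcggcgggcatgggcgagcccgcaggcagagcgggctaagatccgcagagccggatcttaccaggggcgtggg
Kcnt1: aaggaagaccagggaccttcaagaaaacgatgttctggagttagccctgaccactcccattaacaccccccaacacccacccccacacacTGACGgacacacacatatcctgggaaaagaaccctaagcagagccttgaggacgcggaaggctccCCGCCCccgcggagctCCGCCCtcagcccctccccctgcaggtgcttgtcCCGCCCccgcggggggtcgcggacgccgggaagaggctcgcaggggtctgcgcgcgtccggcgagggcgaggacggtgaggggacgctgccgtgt
Kcnip3: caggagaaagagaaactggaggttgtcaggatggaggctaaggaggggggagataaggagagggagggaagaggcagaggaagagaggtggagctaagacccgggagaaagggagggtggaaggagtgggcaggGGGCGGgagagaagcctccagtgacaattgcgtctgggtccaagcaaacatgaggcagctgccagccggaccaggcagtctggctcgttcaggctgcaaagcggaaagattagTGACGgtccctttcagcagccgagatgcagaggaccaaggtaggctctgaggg

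The PU.1 site, named for a factor of myeloid cells, was present once in the Kcnj5 window and absent from the other 3 printed. Of channel genes with a window, 1 of 3 risen in ICH against Sham had it (Kcnj5), as did 1 of 10 fallen (Kcnj14). The PU.1 site was found in 3 of the 61 channel genes with a window (4.92%), against 2.62% of the 27457 genes with a window. The GC box occurred 3 times in Kcnj5, 3 times in Kcnt1 and 1 time in Kcnip3, and was found in 49.2% of channel genes, against 36% of all genes. The TGACG core was found in Kcnt1 and Kcnip3, and in 23% of channel genes, against 23% of all genes. Of the 10 channel genes with a window that fell in ICH against Sham, only Kcnt1 and Kcnip3 had this core. It was in 0 of the 3 that rose. Of the other motifs searched on both strands, the full element TGACGTCA, which contains TGACG, was in 0% of channel genes, against 2% of all, the AP-1 site TGANTCA in 4.92%, against 8.04%, and the TATA box TATAAA in 3.28%, against 15.3%. The ETS core GAGGAA, which lies within the PU.1 site, was in 37.7%, against 29.2%, the E-box CANNTG in 73.8%, against 73.2%, and the STAT site TTCNNNGAA in 11.5%, against 9.39%. The left part TTCAGCACC of the RE1 site was in 1 of 61 channel genes (1.64%), against 0.404% of all. Its right part GGACAGCGC was in 0%, against 0.455%. A match is a run of letters in this window and no measurement of binding.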

How the data were processed

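The 9 libraries hold messenger RNA of rat striatum, 3 each from EDB, ICH and Sham. The authors deposited read counts per gene, whole numbers with 1 library per file. The submitters' processing notes name cutadapt, HISAT2, HTSeq, limma and the build Rnor_6.0. Versions, strand setting and annotation were not given in the sources used, so reads of overlapping genes or close paralogs may be shared. Counts were fitted with edgeR 4.0.16 under R 4.3.3: filterByExpr by group, TMM scaling, all 9 libraries in 1 robust quasi-likelihood fit, and Benjamini-Hochberg adjustment over 14274 genes. The fit was tested on simulated data. DESeq2 1.42.0 and limma-voom (limma 3.58.1) were alternatives, among 18 planned settings and 1 added after the data were seen. A count of 0 allows up to 3 counts, 0.162 to 0.212 CPM. The members, role groups and lists were chosen with earlier results of these data known. Named genes were every member called in any comparison, the 2 smallest p-values of each role group in ICH against Sham, and a fixed list of 24. The main fit did not pair libraries by replicate number, since the labels do not say that a number marks a shared animal, batch or day. Results of some channel and partner genes are not reported here, though counts and medians over all tested genes include them.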

Additional observations from a re-analysis of the deposited data

How the results depend on the processing

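No called gene changed sign in any setting. Of the 25 genes called in ICH against Sham, 11 kept their call in every setting, and of the 9 called in EDB against Sham, 4 did. Signs differed in at least 1 setting for 4, 12 and 9 uncalled named genes in ICH against Sham, EDB against ICH and EDB against Sham. Leaving out 1 library at a time gave 3 to 5 risen and 12 to 22 fallen members in ICH against Sham. Of all tested genes 1160 to 1631 rose and 565 to 993 fell there. In EDB against ICH 0 to 1 members rose, where 0 to 92 of all tested genes rose. In EDB against Sham 2 to 7 members rose, where 374 to 935 of all tested genes rose. The setting without Sham 2, ICH 1 and EDB 3 together was chosen after seeing the data. There 12 members fell in ICH against Sham, where 886 of all 14343 tested genes fell. In EDB against ICH 4 members rose, where 56 of all genes rose. In EDB against Sham 9 members rose and 2 fell, where 947 of all genes rose and 681 fell. DESeq2 called 7 higher and 1 lower in EDB against ICH, where it called 215 and 481 of all 14274 genes, and 10 fallen in EDB against Sham, where it called 752 of all genes fallen. The median in ICH against Sham was -0.33 with scaling by library size only, where the median of all genes was 0.10, and -0.49 to -0.32 with 1 library left out. The medians with 1 library left out were 0.22 to 0.32 in EDB against ICH and -0.25 to -0.13 in EDB against Sham. Library size scaling also gave 2008 risen and 691 fallen genes in all in ICH against Sham, against 1628 and 1042. In EDB against ICH it placed the median of all genes at -0.11. The causes were not tested.

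With the replicate number as a block, 5 members rose and 19 fell in ICH against Sham, where 1347 of all 14274 genes rose and 746 fell. In EDB against ICH 0 members rose and 0 fell, where 0 of all genes rose and 58 fell. In EDB against Sham 5 members rose and 4 fell, where 573 of all genes rose and 228 fell. Among the genes described, the block ended the call of Hcn3 in ICH against Sham (adjusted p = 0.0501, edgeR's quasi-likelihood test) and of Dlg2 in EDB against Sham (adjusted p = 0.0649). Deviations of same-numbered libraries from their group means had correlations between -0.31 and 0.25. Libraries of different numbers were not correlated for reference, so these values do not decide whether the numbers pair the libraries. Members under 1 CPM are limited by depth.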
